A study of Schizosaccharomyces pombe with 6 samples.

Results

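The genes described here build the lipids of the fission yeast Schizosaccharomyces pombe: ergosterol, the main fungal sterol, fatty acids, phospholipids and the first intermediate of sphingolipids. They are the 36 entries, of 5160 in the deposited table, whose gene symbol is erg followed by digits or stands in a list of 36 lipid gene symbols, and 17 of them came from the erg pattern. Messenger RNA of whole cells was measured by RNA sequencing after selection of poly(A) RNA with oligo(dT), in 3 wild-type libraries and 3 libraries of a strain mutated in dsk1, a gene for a protein kinase that phosphorylates SR splicing factors. The series text calls the mutant a deletion and the genotype label calls it a knockdown, and no further allele, medium, temperature or growth phase is named there for either group. The comparison asks which transcript levels change when dsk1 is impaired.

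Sterols are built from acetyl-CoA through mevalonate and squalene to lanosterol, which a series of further enzymes turns into ergosterol, and several of these steps consume oxygen. In fission yeast the membrane-bound transcription factor Sre1 and its partner Scp1 sense sterols, and cleavage of Sre1 under low oxygen releases a fragment that activates sterol genes. Phosphatidylserine is decarboxylated to phosphatidylethanolamine, which is methylated stepwise to phosphatidylcholine, the main membrane phospholipid. Fission yeast cannot make inositol and must import it to form phosphatidylinositol.

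The libraries held 15700362 to 19020530 counts, of which the 36 genes took 1.65% to 1.77%. The dsk1 transcript itself stood at 99.4, 102 and 99.96 CPM (counts scaled to library size with TMM factors) in the wild type and at 13.7, 11.3 and 11.9 CPM in the mutant. The marker gene ura4 had counts of 1957, 1392 and 1710 in the mutant libraries and 0 in all 3 of the others, so the groups also differed in ura4, and effects of the 2 genes cannot be told apart. Wild-type replicate 2 stood apart, since its counts gave a chi-square of 176 and 280 per degree of freedom against its fellow libraries, which differed by 32.4. Of 13 markers of mating and starved cells, the summed level was 829 to 946 CPM in the wild type and 1015 to 1119 CPM in the mutant, 1 fell (mei3, a meiotic inducer, from 12.2 to 3.89 CPM) and 0 rose by edgeR, while DESeq2 called 1 higher and 2 lower, and 1 higher and 2 lower had an unadjusted edgeR p under 0.05. The part of these markers in the results was not tested.

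Of the 36 genes, all of which passed the expression filter, 1 rose and 1 fell in the mutant, and 34 did not pass the test. The inositol transporter gene itr1 rose 1.61-fold, and cho2, for the enzyme that starts the methylation of phosphatidylethanolamine, fell 1.60-fold. Calls were made at an adjusted p under 0.05 in edgeR's quasi-likelihood test with Benjamini-Hochberg adjustment over all 4987 genes tested, where 2.03% were called, 0.441% higher and 1.58% lower. With an unadjusted p under 0.05 as the threshold, 2 of the 36 were higher (itr1 and scp1) and 5 lower (cho2, erg5, erg28, hcs1 and pps1), against 9.2% of all tested genes higher and 13.5% lower. The median log2 fold change over the 36 genes was -0.07, against -3.2e-04 over all genes tested, and 21 lay below 0. That median was 0.06 without wild-type replicate 2. Of the 36, 5 differed by more than 0.5 on the log2 scale (13.9%), against 18.4% of all tested genes, and 22 differed by less than 0.2. In 11 of the 36 (30.6%, 4 higher and 7 lower) the 3 libraries of one group all lay above the 3 of the other, a share near the 32.1% of all tested genes (15.5% higher and 16.6% lower).

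**Figure D1:**
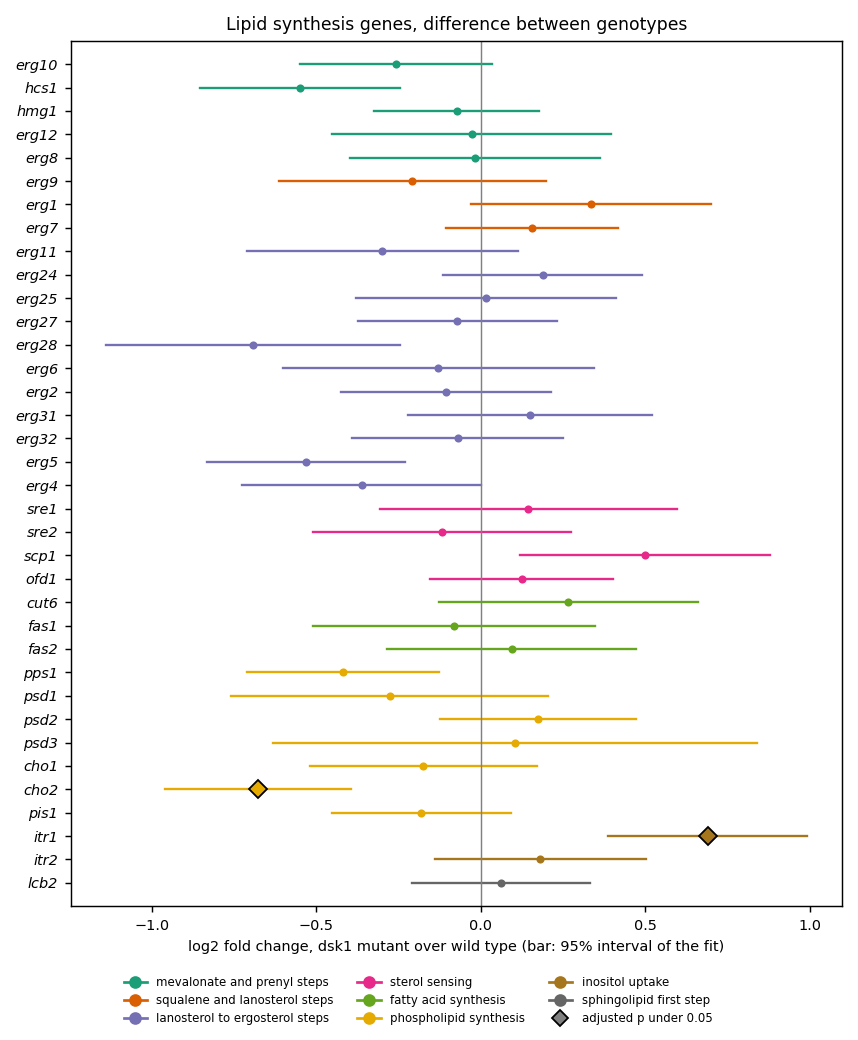
Log2 fold change of each gene, mutant over wild type, with the 95% interval of the edgeR fit, in the order of the pathways and coloured by role. Diamonds mark the 2 genes called, itr1 at 0.69 and cho2 at -0.68, and most of the other intervals include 0.

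Inositol transport. The gene itr1 (SPAC4F8.15) encodes a myo-inositol transporter of the plasma membrane. Wild-type libraries held 116, 144 and 123 CPM of it and mutant libraries 207, 222 and 188 CPM. Every mutant library lay above every wild-type library. The log2 fold change was 0.69 (SE 0.13, 95% interval 0.39 to 0.99, edgeR adjusted p = 0.0461), higher in 3 of 3 mutant libraries. The second transporter gene, itr2, was at 1077, 885 and 962 CPM in the wild type and 1075, 1062 and 1178 CPM in the mutant. Its groups overlapped, and its log2 fold change of 0.18 (SE 0.14) did not pass (adjusted p = 0.444). Among all entries of the table, 94.6% lay below itr2 and 55.8% below itr1 in wild-type FPKM. Per length, itr2 was the more abundant of the pair, with 436 ± 71.3 FPKM (fragments per kilobase, scaled to depth, SD, n = 3) against 45.4 ± 2.11 FPKM for itr1 in the wild type. The ratio of itr1 to itr2 in FPKM was 0.0864, 0.131 and 0.103 in the wild type and 0.155, 0.168 and 0.128 in the mutant, so wild-type replicate 2 and mutant replicate 3 overlapped. A noncoding RNA on the other strand covers 66.1% of itr1, and whether counting used the strand is not given in the sources used here. Such cover runs from none of erg25 to 100% of erg24, so this limit is not special to itr1. Among the other genes with an unadjusted edgeR p under 0.05, it is 71.5% in erg5, 64.7% in scp1 and 58.1% in pps1. It is 48.8% in hcs1, 27.0% in erg28 and 11.9% in cho2. The coding gene sqs2 also covers 26.5% of pps1 on the other strand. The call of itr1 was lost with the gene-length trend removed (adjusted p = 0.0578) and without wild-type replicate 1 (0.16), wild-type replicate 3 (0.0661) or any 1 mutant library (0.252, 0.197 and 0.122 without replicates 1, 2 and 3).

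Phospholipid synthesis. From phosphatidylserine to phosphatidylcholine the genes run pps1, psd1 to psd3, cho2 and cho1. Levels of cho2 (SPBC26H8.03) were 447, 490.5 and 427 CPM in the wild type and 279, 263 and 311 CPM in the mutant. All 3 mutant libraries lay below all 3 wild-type libraries. The log2 fold change was -0.68 (SE 0.12, 95% interval -0.96 to -0.39, edgeR adjusted p = 0.0403), lower in 3 of 3 mutant libraries. In FPKM cho2 went from 140 ± 2.95 (SD, n = 3) to 90.2 ± 2.52 (SD, n = 3). The next methyltransferase gene, cho1, was at 153, 167 and 207 CPM in the wild type and 139, 158 and 169.7 CPM in the mutant. Its groups overlapped, and its log2 fold change of -0.17 (SE 0.15) did not pass (adjusted p = 0.496). The call of cho2 was lost without wild-type replicate 1 (adjusted p = 0.155) or any 1 mutant library (0.252, 0.194 and 0.108 without replicates 1, 2 and 3), and held without wild-type replicate 2 (log2 fold change -0.62, adjusted p = 0.0149).

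Upstream of cho2, the phosphatidylserine synthase gene pps1 had 125, 132 and 128 CPM in the wild type and 88.8, 89.2 and 110.4 CPM in the mutant. The groups did not overlap, yet the log2 fold change of -0.42 (SE 0.13) did not pass (adjusted p = 0.119). The 3 phosphatidylserine decarboxylase genes differed widely in level, with 169 ± 25.1 FPKM for psd2, 44.1 ± 9.38 FPKM for psd1 and 2.84 ± 0.74 FPKM for psd3 in the wild type (SD, n = 3). Their log2 fold changes were 0.17, -0.28 and 0.10, and none of these 3 passed the test. Levels of psd3, the lowest of the 36 genes per length, were 11.8, 9.95 and 6.98 CPM in the wild type and 12.5, 12.1 and 6.27 CPM in the mutant. Its spread within a group exceeded the difference between the groups, and 97.2% of its span is covered on the other strand by dpm1, a mannosyltransferase gene at 183 to 212 CPM over the 6 libraries, so its counts are uncertain. The phosphatidylinositol synthase gene pis1, which uses the imported inositol, was at 213, 253 and 227 CPM in the wild type and 193, 202 and 217 CPM in the mutant. Its groups overlapped, with a log2 fold change of -0.18 (SE 0.12, adjusted p = 0.376). Over the 7 phospholipid genes, 1 fell and 6 did not pass, 5 lay below 0, and the median log2 fold change was -0.18.

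**Figure D2:**
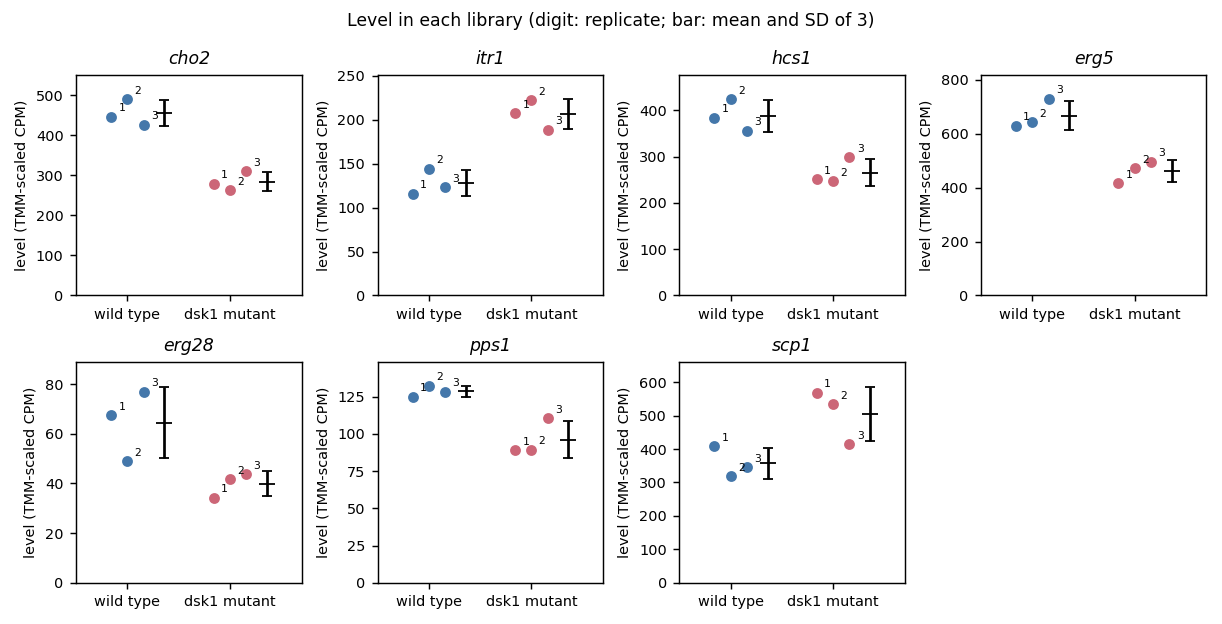
Level in each library, in TMM-scaled CPM on axes starting at 0, of the 7 genes with an unadjusted edgeR p under 0.05, in the order of that p, where digits give the replicate and bars the mean and SD of 3 libraries. The groups do not overlap in these 7 genes, which were chosen by that p from the same libraries, so this is no further evidence. Groups without overlap were seen in 32.1% of all tested genes. Of the 7, cho2 and itr1 were called, and the nearest libraries of scp1 were at 409 and 414 CPM.

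Mevalonate steps. Acetyl-CoA enters the pathway through erg10 (acetoacetyl-CoA thiolase), hcs1 (HMG-CoA synthase) and hmg1 (HMG-CoA reductase, the rate-limiting enzyme in many organisms), followed by the kinase genes erg12 and erg8. The hcs1 transcript (SPAC4F8.14c) stood at 384, 425 and 356 CPM in the wild type and 251, 247 and 299 CPM in the mutant. The groups did not overlap. Its log2 fold change was -0.55 (SE 0.13) and did not pass (edgeR adjusted p = 0.076), while it passed without wild-type replicate 2, in the DESeq2 Wald test and in the 3 limma fits on FPKM. Levels of erg10 were 666, 629 and 677 CPM in the wild type and 504, 537 and 609.7 CPM in the mutant. These too did not overlap, and the log2 fold change of -0.26 (SE 0.13) did not pass (adjusted p = 0.266). By contrast hmg1 was at 514, 491 and 465 CPM against 468, 463 and 467 CPM. The mutant libraries lay at the lower end of the wild-type range, replicate 2 just below it, and the 95% interval of the log2 difference ran from -0.32 to 0.18. The kinase gene erg12 had a log2 fold change of -0.03. The lowest of these 5 genes per length was erg8, at 10.2 FPKM in the wild type, with 28.0, 32.0 and 22.6 CPM in the wild type and 28.6, 26.5 and 26.4 CPM in the mutant. The wild-type range contained all 3 mutant values, and the log2 fold change was -0.02 (SE 0.16). Its counts are uncertain, as slx1, a nuclease gene on the opposite strand, covers 94.9% of its span. All 5 lay below 0, against 50.0% of all tested genes, and 0 were called by edgeR. For erg12 and erg8, both near 0, the sign was the other one in 7 of the 18 alternative fits each. Among the 5 genes hcs1 alone had an unadjusted p under 0.05, and it was the 1 that DESeq2 called. The deposited FPKM summed over the 5 genes were 883, 758 and 880.4 in the wild type and 683, 714 and 721 in the mutant, without overlap. Most of this sum came from erg10 and hcs1, at 415 and 249 FPKM in the wild type, so it says little about the other genes. Single genes without overlap made up 32.1% of all tested.

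Squalene and lanosterol steps. Squalene synthase (erg9), squalene monooxygenase (erg1) and lanosterol synthase (erg7) lead to the first sterol, and none of the 3 genes passed the test. Levels of erg1 were 453, 458 and 488 CPM in the wild type and 477, 596 and 691 CPM in the mutant. Mutant replicate 1 lay inside the wild-type range and the other two above it, and the log2 fold change was 0.33 (SE 0.16, adjusted p = 0.248). For erg9 the values were 444, 429 and 503 CPM in the wild type and 352, 339.8 and 500.5 CPM in the mutant. Mutant replicate 3 lay apart from the other mutant libraries and within the wild-type range, and the log2 fold change was -0.21 (SE 0.17). The erg7 transcript had 183, 193 and 164 CPM in the wild type and 201, 208 and 193.4 CPM in the mutant. Its groups were separated by less than 1 CPM, and the log2 fold change was 0.16 (SE 0.11, adjusted p = 0.42).

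From lanosterol to ergosterol. None of the 11 genes of this stretch passed the test, 8 lay below 0, and their median log2 fold change was -0.10. Without wild-type replicate 2, erg6 and erg32 were above 0, at 0.02 and 0.06. The others kept their sign, with erg2 at -0.01. The C-22 desaturase gene erg5, whose product acts near the end of the pathway, was at 629.9, 641 and 729 CPM in the wild type and 417, 472 and 496 CPM in the mutant. The groups did not overlap, and the log2 fold change was -0.53 (SE 0.13, edgeR adjusted p = 0.0798). The last enzyme, the C-24(28) reductase, is encoded by erg4, which RefSeq lists with the older name sts1. It was at 138, 186 and 138 CPM in the wild type and 111, 115 and 134 CPM in the mutant. These groups did not overlap either, and the log2 fold change of -0.36 (SE 0.16) did not pass (adjusted p = 0.221).

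The erg28 gene encodes a small membrane protein that in budding yeast holds the C-4 demethylation enzymes together. Its levels were 67.4, 48.9 and 76.9 CPM in the wild type and 34.3, 41.7 and 43.7 CPM in the mutant. The groups did not overlap, with wild-type replicate 2 nearest to the mutant libraries. Its log2 fold change of -0.69 (SE 0.19) was the lowest of the 36 and did not pass (adjusted p = 0.105). Its counts are uncertain, as 61.6% of it is covered on the other strand by dre2, which was at 140 to 244 CPM in the wild type and 135 to 144 CPM in the mutant. Another member of that enzyme group, the C-4 methyl oxidase gene erg25, was the most abundant of the 36 per length, at 664 ± 65.4 FPKM (SD, n = 3) in the wild type. It had 1055, 1328 and 937 CPM in the wild type and 1097, 1035 and 1225 CPM in the mutant. The groups overlapped, and the 95% interval of the log2 difference was -0.38 to 0.41. The reductase gene erg27, which belongs to the same demethylation reaction, was the lowest of this stretch at 28.9 ± 4.18 FPKM (SD, n = 3). It had 44.1, 41.5 and 47.8 CPM in the wild type and 40.1, 46.4 and 40.5 CPM in the mutant, with overlapping groups and a log2 fold change of -0.07 (SE 0.13).

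The lanosterol demethylase gene erg11, whose product is the target of azole antifungals, was at 989, 1336 and 1016 CPM in the wild type and 837, 828 and 1051 CPM in the mutant. Wild-type replicate 2 was the highest library, mutant replicate 3 overlapped the wild type, and the log2 fold change was -0.30 (SE 0.18, adjusted p = 0.339). The C-5 desaturase is encoded by a pair of genes, erg31 and erg32, at 399 ± 67.9 and 108 ± 6.65 FPKM in the wild type (SD, n = 3). The ratio of erg31 to erg32 in FPKM was 3.996, 2.78 and 4.36 in the wild type and 3.61, 4.36 and 4.72 in the mutant, with overlap. Log2 fold changes were 0.15 (SE 0.16) for erg31 and -0.07 (SE 0.14) for erg32. The others were erg24 at 0.19 (C-14 reductase), erg2 at -0.10 (C-8 isomerase) and erg6 at -0.13 (C-24 methyltransferase), and the counts of erg6 are uncertain, since uvi31 covers the whole of it on the opposite strand. Of 7 genes for oxygen-using steps, namely erg1, erg11, erg25, erg31, erg32, erg5 and the acyl-CoA desaturase gene SPCC1281.06c, 0 were called by edgeR, while erg5 was lower in DESeq2 and at an unadjusted edgeR p under 0.05. Of the 7, 4 lay above 0 and 3 below.

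**Figure D3:**
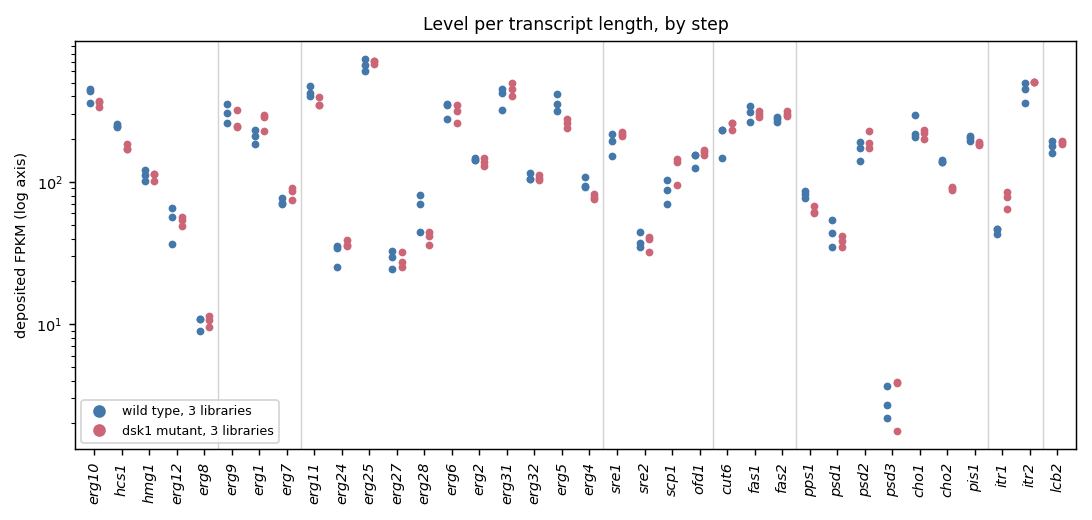
Deposited FPKM of each gene in each library on a log axis, in pathway order, with vertical lines between roles. Levels span from psd3, at 2.84 FPKM in the wild type, to erg25, at 664 FPKM, while the libraries of the 2 genotypes lie close together for most genes.

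Sterol sensing. Sre1 is the fission yeast counterpart of the animal sterol regulatory element binding protein, Scp1 its escort, and Ofd1 an oxygen-dependent regulator that speeds the breakdown of the active Sre1 fragment. None of the 4 genes in this group passed the test. The scp1 transcript was at 409, 318 and 346 CPM in the wild type and 569, 535 and 414 CPM in the mutant. The groups did not overlap, but mutant replicate 3 lay close to wild-type replicate 1. Its log2 fold change was 0.50 (SE 0.16, 95% interval 0.12 to 0.88, edgeR adjusted p = 0.14). Levels of sre1 were 654, 835 and 502 CPM in the wild type and 731, 684 and 786 CPM in the mutant. All mutant values lay inside the wild-type range, and the log2 fold change was 0.14 (SE 0.19). The ofd1 transcript had 304, 279 and 299 CPM in the wild type and 312, 293 and 356 CPM in the mutant, with overlap and a log2 fold change of 0.12 (SE 0.12). For sre2, a related membrane-tethered factor, the values were 155, 211 and 141 CPM in the wild type and 166, 158 and 143 CPM in the mutant, again with overlap, and the log2 fold change was -0.12 (SE 0.17). The ratio of sre1 to sre2 in FPKM was 5.22, 4.90 and 4.42 in the wild type and 5.46, 5.37 and 6.80 in the mutant. Its groups did not overlap, though the nearest libraries were at 5.22 and 5.37. The ratio was not tested, and 32.1% of all tested genes also had groups without overlap.

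Fatty acid synthesis. Acetyl-CoA carboxylase (cut6) makes malonyl-CoA, and the subunits Fas1 and Fas2 form fatty acid synthase. None of these 3 genes passed the test. For cut6 the levels were 1648, 1186 and 1599.5 CPM in the wild type and 1780.4, 1765 and 1786 CPM in the mutant. The 3 mutant libraries were close together and above the wild type, whose replicate 2 was far below its other libraries, and the log2 fold change was 0.27 (SE 0.17, edgeR adjusted p = 0.368). Without wild-type replicate 2 it was 0.13, and with the gene-length trend removed it was 0.07. The fas1 transcript was at 2118, 2642 and 1768 CPM in the wild type and 1996, 2057 and 2115 CPM in the mutant, so the wild-type range contained all 3 mutant values. For fas2 the values were 1552, 1843 and 1456 CPM against 1604, 1639 and 1936 CPM, with overlap. Both subunits were at a like level per length, with a ratio of fas1 to fas2 in FPKM of 1.13, 1.19 and 1.01 in the wild type and 1.03, 1.04 and 0.909 in the mutant. Their log2 fold changes were -0.08 (SE 0.18) and 0.09 (SE 0.16). With the gene-length trend removed these were -0.32 and -0.09.

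Sphingolipid entry. The serine palmitoyltransferase subunit gene lcb2 was at 423, 437.5 and 451 CPM in the wild type and 431, 437 and 502 CPM in the mutant. The groups overlapped, and the 95% interval of the log2 difference was -0.21 to 0.33. Its partner subunit gene appears in the table only by its systematic name, SPBC18E5.02c, and so is outside the 36. It was at -0.17 (SE 0.13, adjusted p = 0.455). The other listed names with no entry of that symbol were erg20, a RefSeq synonym of spo9, at -0.11, erg26, entered as SPBC3F6.02c, at -0.02, and the desaturase gene ole1, entered as SPCC1281.06c, at 0.34 (SE 0.19, adjusted p = 0.311). The last of these was at 1459 FPKM in the wild type and 1888 FPKM in the mutant, above each of the 36 genes, and its groups did not overlap.

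**Figure D4:**
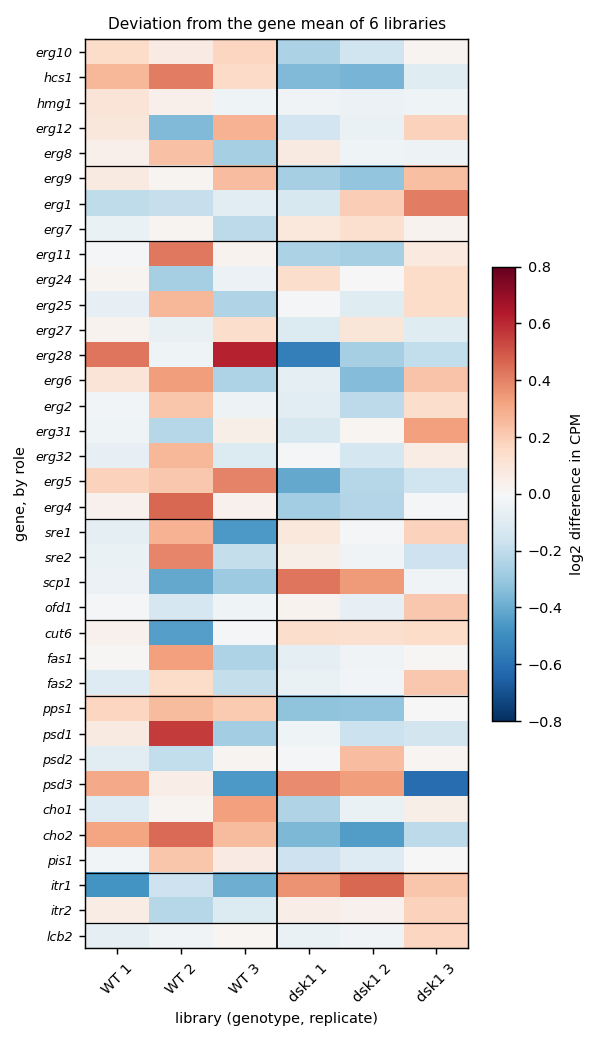
Difference of each library from the gene's mean over 6 libraries, in log2 CPM, with genes in pathway order and the colour scale ending at 0.8 in both directions. In the itr1 and cho2 rows the 3 mutant libraries have one sign and the 3 wild-type libraries the other, while in 23 of the 36 rows wild-type replicate 2 is the highest or the lowest of the 6 libraries.

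Spread among libraries. Wild-type replicate 2 was the highest or lowest of the 6 libraries in 23 of the 36 genes, as in 3451 of the 4987 tested. The median coefficient of variation over the 36 genes was 10.9% in the wild type and 9.30% in the mutant, against 15.9% and 9.85% over all genes tested. The gene psd1 stood highest in that library, with 104 CPM, while wild-type replicates 1 and 3 had 74.2 and 58.2 CPM. Without wild-type replicate 2, edgeR called 466 genes in all (9.32%), among them 5 of the 36: itr1 higher, and cho2, erg28, erg5 and hcs1 lower. In the authors' deposited table, where 11% of all entries had an adjusted p under 0.05, these were 1 higher (itr1) and 5 lower (cho2, erg28, erg5, hcs1 and pps1) among the 36 genes. A DESeq2 Wald test on the deposited counts, which called 11.1% of the genes it gave an adjusted p, had the same adjusted p, within a relative tolerance of 0.001, for all 36, so the deposited calls and the DESeq2 calls are 1 result.

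Features outside the choice of genes. By the RefSeq annotation of assembly ASM294v3, itr1 and hcs1 are next to each other and transcribed in opposite directions away from a shared upstream region. The first rose and the second was at -0.55 without passing. Among the 36 genes 22 have no intron (61.1%), against 51.2% of all tested genes with an annotated transcript. The median log2 fold change was -0.03 over the 22 and -0.12 over the 14 with introns, and in all tested genes it was 0.02 without and -0.02 with introns. The median transcript length implied by counts and FPKM was 1909 bases, against 1826 in all tested genes.

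Other genes of these pathways. Over all genes, edgeR called 2.03% of those tested and DESeq2 11.1% of those it gave an adjusted p. The unadjusted edgeR p was under 0.05 in 22.7%. In the deposited KEGG annotation, steroid biosynthesis held 18 tested genes with a median of -0.07 (0.03 without wild-type replicate 2), and edgeR called 0 of them. Of these erg5 alone was called by DESeq2 or had an unadjusted edgeR p under 0.05. Terpenoid backbone biosynthesis held 17 genes with 0 edgeR calls, while the unadjusted p was under 0.05 for 1 higher and 2 lower, and DESeq2 called 1 higher (mam4) and 2 lower (hcs1 and idi1). Of 37 genes of glycerophospholipid metabolism edgeR called 1, cho2, and 9 had an unadjusted p under 0.05 (3 higher and 6 lower). These 9 are 24.3%, near the share over all genes. DESeq2 called 7 of them, 2 higher and 5 lower, namely cho2, ect1, gde1, gep4, pgc1, pps1 and slc1. Fatty acid elongation held 7 genes, of which phs1 fell in both tools and 6 did not pass, and the unadjusted edgeR p was under 0.05 for 1 higher and 3 lower. Sphingolipid metabolism held 11, of which 2 fell by edgeR, and DESeq2 called these and lac1, which was higher. In the map of fatty acid biosynthesis, 0 of 8 were called by edgeR and 0 by DESeq2, and 1 (mct1) was lower at an unadjusted p under 0.05. Biosynthesis of unsaturated fatty acids held 7, of which phs1 alone was called.

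The gene phs1 encodes a dehydratase of the elongation cycle that makes very long-chain fatty acids. It was at 63.4, 61.1 and 59.7 CPM in the wild type and 39.3, 39.3 and 43.1 CPM in the mutant, without overlap (log2 fold change -0.60, SE 0.11, edgeR adjusted p = 0.0472). Among the other genes of that cycle, the reductase genes ifa38 and tsc13 were at -0.60 and -0.53 and did not pass (adjusted p = 0.133 for both). The predicted elongase genes SPAC1639.01c and SPAC1B2.03c, named after their values were seen, were on the other side of 0, at 0.24 and 0.14, and did not pass either (adjusted p = 0.217 and 0.599). In ifa38, tsc13 and SPAC1639.01c the groups did not overlap. Among sphingolipid genes SPCC1450.15, annotated as a fusion of a 3-ketosphinganine reductase (the step after serine palmitoyltransferase) with a GPI anchor protein, was at 74.3, 113.5 and 73.4 CPM in the wild type and 35.97, 37.9 and 42.3 CPM in the mutant. All mutant libraries lay below the wild type (log2 fold change -1.17, SE 0.19, adjusted p = 0.0346). The predicted arylsulfatase gene SPBPB10D8.02c, which the annotation places in the same map, fell too, by 3.55 on the log2 scale (adjusted p = 0.0208).

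Of 11 further sphingolipid genes edgeR called 0 and DESeq2 called 1 higher (lac1). The genes lac1, css1 and imt2 were higher at an unadjusted p under 0.05, and 0 were lower. Their median was 0.31, 9 lay above 0, and in 7 the mutant libraries all lay above the wild type, against 15.5% of all tested genes. Wild-type replicate 2 was the lowest wild-type library in 9 of the 11 and the highest or lowest of all 6 libraries in all 11. Without it the median was 0.20 and 10 lay above 0. The ceramide synthase gene lac1 was at 118, 103 and 137 CPM in the wild type and 157, 162 and 169 CPM in the mutant (log2 fold change 0.44, SE 0.13, adjusted p = 0.12). The inositol phosphosphingolipid phospholipase gene css1 was at 0.51 and imt2, for a mannosyltransferase of inositol sphingolipids, at 0.48, and neither passed.

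Among 11 partners of Sre1 processing and oxygen sensing edgeR called 0. The 1 that was higher in DESeq2, and at an unadjusted edgeR p under 0.05, was hem13, for an oxygen-using enzyme of haem synthesis, at 707, 553 and 570.0 CPM in the wild type and 867, 848 and 1017.5 CPM in the mutant. These groups did not overlap, and its log2 fold change was 0.58 (SE 0.15, adjusted p = 0.0977). Of 9 other prenyl genes edgeR called 0, and DESeq2 called dlp1 higher and idi1 lower, the same genes that had an unadjusted edgeR p under 0.05. The isopentenyl diphosphate isomerase gene idi1, which follows the mevalonate steps, was at -0.52 (SE 0.13, adjusted p = 0.0908), and dlp1, for a subunit of the enzyme that makes the ubiquinone side chain, at 0.89 (SE 0.29, adjusted p = 0.138). Of 7 storage lipid genes 0 were called by edgeR and 0 by DESeq2, and the acyltransferase gene plh1, at -0.31, had an unadjusted p under 0.05. Of 17 other phospholipid genes edgeR called 0 and DESeq2 1 (slc1, lower), and the unadjusted edgeR p was under 0.05 for 1 higher and 2 lower. The one with the smallest adjusted p was the acyltransferase gene slc1, at -0.72 (SE 0.17, adjusted p = 0.076). Of 13 other fatty acid genes and regulators 1 fell (phs1), 12 did not pass, and DESeq2 called phs1 and vht1, both lower. The unadjusted edgeR p was under 0.05 for 7 of the 13 (53.8%, 2 higher and 5 lower), against 22.7% of all tested genes. The 13 were listed with earlier results of these data known. They include vht1 and mga2, chosen after their values were seen, so this share is no evidence about the set. Wild-type replicate 2 was the highest wild-type library in 9 of the 13, and the median of -0.14 was 0.01 without it.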

How the data were processed

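RNA sequencing was done on 3 wild-type and 3 dsk1 mutant libraries, grouped by the genotype in the labels. These do not call the replicates separate cultures, so the spread behind each p-value may be technical only. HISAT2, Bowtie2, StringTie, RSEM, fastp and DESeq2 are listed in the submitters' processing notes without versions or roles. No source used here gives the build or the strand setting. For each gene and library the authors deposited 1 whole-number count and 1 FPKM value, per the file headers. The authors' deposited table also holds their log2 fold, a p-value and its adjusted form. A count of 0 allows up to 3 counts, or 0.158 to 0.191 CPM by library, which covers counting error only. Chi-square tests of replicate pairs gave 26.7 to 280 per degree of freedom, so no library was a copy.

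Counts were tested with edgeR 4.0.16 in R 4.3.3 (TMM, default filter, genotype as the only term), on 4987 of 5160 entries, with Benjamini-Hochberg adjustment over all of them, and calls at 0.05. The script was tested on simulated data. Intervals are at 95% from the fit. Deposited FPKM, which carry no TMM scaling, were used to set levels of different genes side by side. Alternatives were 3 other scalings, 2 other filters, DESeq2 1.42.0, limma 3.58.1 on log2(FPKM + 1) or log2(FPKM + 0.1) keeping genes of mean FPKM 1 or more, or all genes, a replicate block, removal of the trend with gene length, leaving out each library, and a threshold of 0.01. Names, introns, overlaps and neighbours came from RefSeq ASM294v3, which matched 5109 entries. The members, roles and lists were chosen with earlier results of these data known. Of 90 names in the lists 2 matched no entry. Values in every library were given for called members, the 3 largest rises and falls, sre1, scp1 and ofd1, and the highest and lowest of each role per length, and other members were chosen after their values were seen. In other lists called genes were named, otherwise up to 3 with the smallest adjusted p.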

Additional observations from a re-analysis of the deposited data

How the results depend on the processing

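The directions of itr1 and cho2 were kept in all 18 alternatives, with log2 fold changes of 0.61 to 0.79 and -0.77 to -0.62, and adjusted p of 2.2e-04 to 0.252 and 4.63e-05 to 0.252. Of the 36 genes, edgeR called 1 higher and 1 lower. The count lower was 5 with DESeq2 (568 genes called in all, against 101) and 2 in each of the 3 limma fits. Leaving out 1 library gave 0 to 1 higher, 0 to 4 lower and 3 to 466 genes in all. The count higher was 0 with the length trend removed, and at a threshold of 0.01 both were 0, with 5 genes in all. With the replicate block 0 members were called in either direction, and 3 genes in all. The labels do not say whether replicate numbers pair the libraries. Same-numbered libraries correlated at 0.178, -0.342 and -0.184 in their deviations and only number 1 matched best with itself. With 3 libraries per group these values cannot settle whether the libraries were paired. The median over the members, -0.07, was -0.0206 with library totals only and -0.02 in each limma fit (-0.0166, -0.0167 and -0.0166), and lay between -0.0992 and 0.0616 with 1 library left out. The median over all genes of the fit, -3.2e-04, moved upwards too in the first of these. It was 0.0437 with library totals only and 0.0507, 0.0520 and 0.0451 in the limma fits. With 1 library left out it stayed between -9.4e-04 and 0.00972. The cause of these changes was not tested, and fits without a library also have fewer samples. Depth limits psd3 most, at 9.59 CPM in the wild type.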

Other observations

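Biotin is the cofactor of acetyl-CoA carboxylase, the product of cut6. The biotin transporter gene vht1, chosen after its values were seen, was at 1716, 3701 and 1192 CPM in the wild type and 629, 605 and 700.2 CPM in the mutant. Every mutant library lay below the wild type, with wild-type replicate 2 far above the other wild-type libraries. Its log2 fold change was -1.77 (SE 0.39) and did not pass in edgeR (adjusted p = 0.0661), and without wild-type replicate 2 it was -1.17 and passed (adjusted p = 0.00727). The biotin ligase gene bpl1, entered as SPBC30D10.07c and chosen in the same way, was at -0.14 (SE 0.15). Among regulators of fatty acid genes, also chosen after their values were seen, mga2 was at 0.34 (SE 0.14, adjusted p = 0.217) and cbf11 at 0.16 (SE 0.12, adjusted p = 0.451).

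The mitochondrial malonyl transferase gene mct1, chosen after its values were seen, reached 265 CPM in wild-type replicate 2. Wild-type replicates 1 and 3 had 67.8 and 34.99 CPM and the mutant libraries 32.0 to 37.4 CPM. Wild-type replicate 1 thus also lay above the mutant libraries, and replicate 3 lay within their range. The log2 fold change of mct1 was -1.83 (SE 0.66, edgeR adjusted p = 0.169), and its value without wild-type replicate 2 is not given here.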
